A study of Mus musculus with 21 samples.

Results

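Expression of 10 genes of the transforming growth factor-β (TGF-β) pathway was examined in RNA sequencing of mouse hematopoietic stem cells (HSCs). They are Ltbp1, Tgfb1, Tgfbr1, Tgfbr2, Eng, Smad3, Smad6, Smad7, Ski and Skil, which make up 10 of the 21000 genes in the count table. Ltbp1 was chosen by its low level at day 6 after a single administration of 5-fluorouracil (5-FU), and the other 9 were taken with it as genes of the same pathway. Levels in that comparison are therefore given for the 10 genes without a test. The 21 libraries came from 7 groups of 3. All mice were wild type. One pair of groups received phosphate-buffered saline (PBS) or 5-FU once and was isolated at day 6, with the administration at day 1. A second pair received either agent 3 times, 21 days apart, and was isolated at day 6 after the last administration. A further pair was isolated at day 21 after 5-FU once or 3 times, and the seventh group was old, untreated mice aged 2 years. 5-FU, a cytotoxic drug that kills dividing cells and drives HSCs into the cell cycle, was given intraperitoneally at 150 mg/kg to mice that were 10 weeks old at the start. No PBS group was isolated at day 21, so the PBS groups of day 6 served as controls at both times.

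TGF-β is secreted by cells in a latent form, in which the ligand is held by its own propeptide. Latent TGF-β binding proteins such as Ltbp1 tie this complex to the extracellular matrix, from which integrins and other activators release the ligand. The free ligand binds the type II receptor, Tgfbr2, which recruits and phosphorylates the type I receptor, Tgfbr1. The type I receptor in turn phosphorylates Smad2 and Smad3, which enter the nucleus with Smad4. Smad6 and Smad7 inhibit the receptors, and Ski and Skil hold SMAD complexes in a repressed state. In the bone marrow the pathway is known for restraining the cycling of HSCs.

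Libraries of PBS- and 5-FU-treated mice were made from 3000 to 3500 HSCs each, while the cell number for old mice is not given in the sources used here. Total counts ranged from 22184885 to 38649033 (median 26962256). Values are given as counts per 1000000 (CPM), scaled with trimmed mean of M-values (TMM) factors over the 21 libraries, and in the order of replicates 1, 2 and 3. A count of 3, taken as the floor, corresponded to 0.085 to 0.128 CPM. Libraries within a group differed from each other by 17.3 to 38.9 times the sampling variance of the reads, so none was counted as a copy. For mice given 5-FU and isolated at day 6 the sorting gate was widened to cells with dim c-Kit and the Mac-1 antibody was left out, so that treatment and gate cannot be told apart in those groups. All 10 HSC markers on a fixed list, among them Slamf1, Procr and Mecom, were detected in each day 6 group, with summed levels of 3908–4314 CPM after PBS once, 3148–3296 after 5-FU once, 3762–4105 after PBS 3 times and 2758–2841 after 5-FU 3 times. In bulk samples fewer cells of a type and less RNA per cell cannot be told apart. The columns of the PBS once and 5-FU once groups at day 6 carry a suffix in the count table that the others lack. Its meaning is not stated, and it cannot be told apart from the groups where libraries with and without it are compared.

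Upstream sequences were taken from RefSeq on GRCm38.p6, which held 10 windows of 250 bases before an annotated start for 8 of the 10 genes. They are shown for Ltbp1, whose level varied most among the 10 genes, and for the receptor genes, whose levels lay on opposite sides of the control at day 6. Capitals mark the SMAD box CAGAC (or GTCTG on the other strand) and the GC-rich motif GGCGCC, which reads alike on both strands and does not overlap the box. The first Ltbp1 start has its window at chr17:75005279-75005528 on the plus strand, and the second, inside the gene, at chr17:75178531-75178780. The first Tgfbr1 start has its window at chr4:47352972-47353221 and the second, inside the gene, at chr4:47385966-47386215, both on the plus strand, and Tgfbr2 at chr9:116175364-116175613 on the minus strand.
Ltbp1, first start: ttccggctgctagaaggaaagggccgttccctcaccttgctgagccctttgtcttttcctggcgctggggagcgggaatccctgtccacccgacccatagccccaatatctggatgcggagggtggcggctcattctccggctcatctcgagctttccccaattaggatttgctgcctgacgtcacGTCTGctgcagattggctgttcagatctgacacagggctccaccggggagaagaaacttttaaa
Ltbp1, second start: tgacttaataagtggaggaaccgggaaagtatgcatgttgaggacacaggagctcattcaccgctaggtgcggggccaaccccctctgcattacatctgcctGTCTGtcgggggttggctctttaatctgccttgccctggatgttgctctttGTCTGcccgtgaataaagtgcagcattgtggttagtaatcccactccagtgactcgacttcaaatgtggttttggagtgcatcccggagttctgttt
Tgfbr1, first start: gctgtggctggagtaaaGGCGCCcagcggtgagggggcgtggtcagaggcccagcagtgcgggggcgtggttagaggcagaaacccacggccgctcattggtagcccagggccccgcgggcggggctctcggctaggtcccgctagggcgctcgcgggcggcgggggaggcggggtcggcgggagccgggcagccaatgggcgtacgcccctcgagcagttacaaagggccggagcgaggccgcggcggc
Tgfbr1, second start: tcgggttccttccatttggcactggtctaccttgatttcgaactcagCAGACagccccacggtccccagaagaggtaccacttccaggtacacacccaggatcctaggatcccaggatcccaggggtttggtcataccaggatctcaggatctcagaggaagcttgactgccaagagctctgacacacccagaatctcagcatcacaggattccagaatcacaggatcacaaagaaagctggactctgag
Tgfbr2: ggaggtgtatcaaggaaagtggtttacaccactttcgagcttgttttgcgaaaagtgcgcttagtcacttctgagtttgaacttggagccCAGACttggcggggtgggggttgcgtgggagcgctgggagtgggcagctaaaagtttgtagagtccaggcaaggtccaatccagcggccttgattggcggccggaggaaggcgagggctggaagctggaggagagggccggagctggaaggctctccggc

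The SMAD box was in 5 of the 10 windows. It stood 64 bases before the first Ltbp1 start, 148 and 97 bases before the second, 203 bases before the second Tgfbr1 start, 160 bases before that of Tgfbr2, and 214 and 127 bases before that of Eng. Its 5 letters are common, and 42.2% of all 32851 upstream windows of this length hold it. GGCGCC, held by 9.59% of the windows, lay 233 bases before the first Tgfbr1 start and 220 bases before that of Ski. The palindromic SMAD element GTCTAGAC, held by 0.167% of windows, was in none of the 10 member windows. These matches describe the letters of the windows and no binding was measured.

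In HSCs of mice given PBS once, the co-receptor Eng (endoglin) had the highest level of the 10 genes per length, at 153 ± 6.53 CPM per kilobase of its longest transcript (SD, n = 3). The receptors followed, with 15.1 ± 2.02 CPM per kilobase for Tgfbr2 and 11.6 ± 2.01 for Tgfbr1, whose libraries overlapped. Smad3 had 8.59 ± 0.453 CPM per kilobase, Skil 7.38 ± 0.831, Ski 4.31 ± 0.633 and the ligand Tgfb1 3.03 ± 0.160 (SD, n = 3), and none of these neighbours overlapped. Smad6 (1.82 ± 0.172), Smad7 (1.40 ± 0.368) and Ltbp1 (1.25 ± 1.00) were lowest, and each overlapped with the next. Receptor transcripts thus stood above those of the ligand and of the inhibitory SMADs in these libraries. After 5-FU once at day 6 the order of the receptors was the opposite, with Tgfbr1 (17.9 ± 1.75 CPM per kilobase) above Tgfbr2 (10.2 ± 1.80; SD, n = 3) and no overlap. The mean of Tgfbr1 was also above that of Tgfbr2 after PBS 3 times (14.8 against 14.4 CPM per kilobase) and in old HSCs (13.7 against 13.01), where the libraries overlapped.

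**Figure D1:**
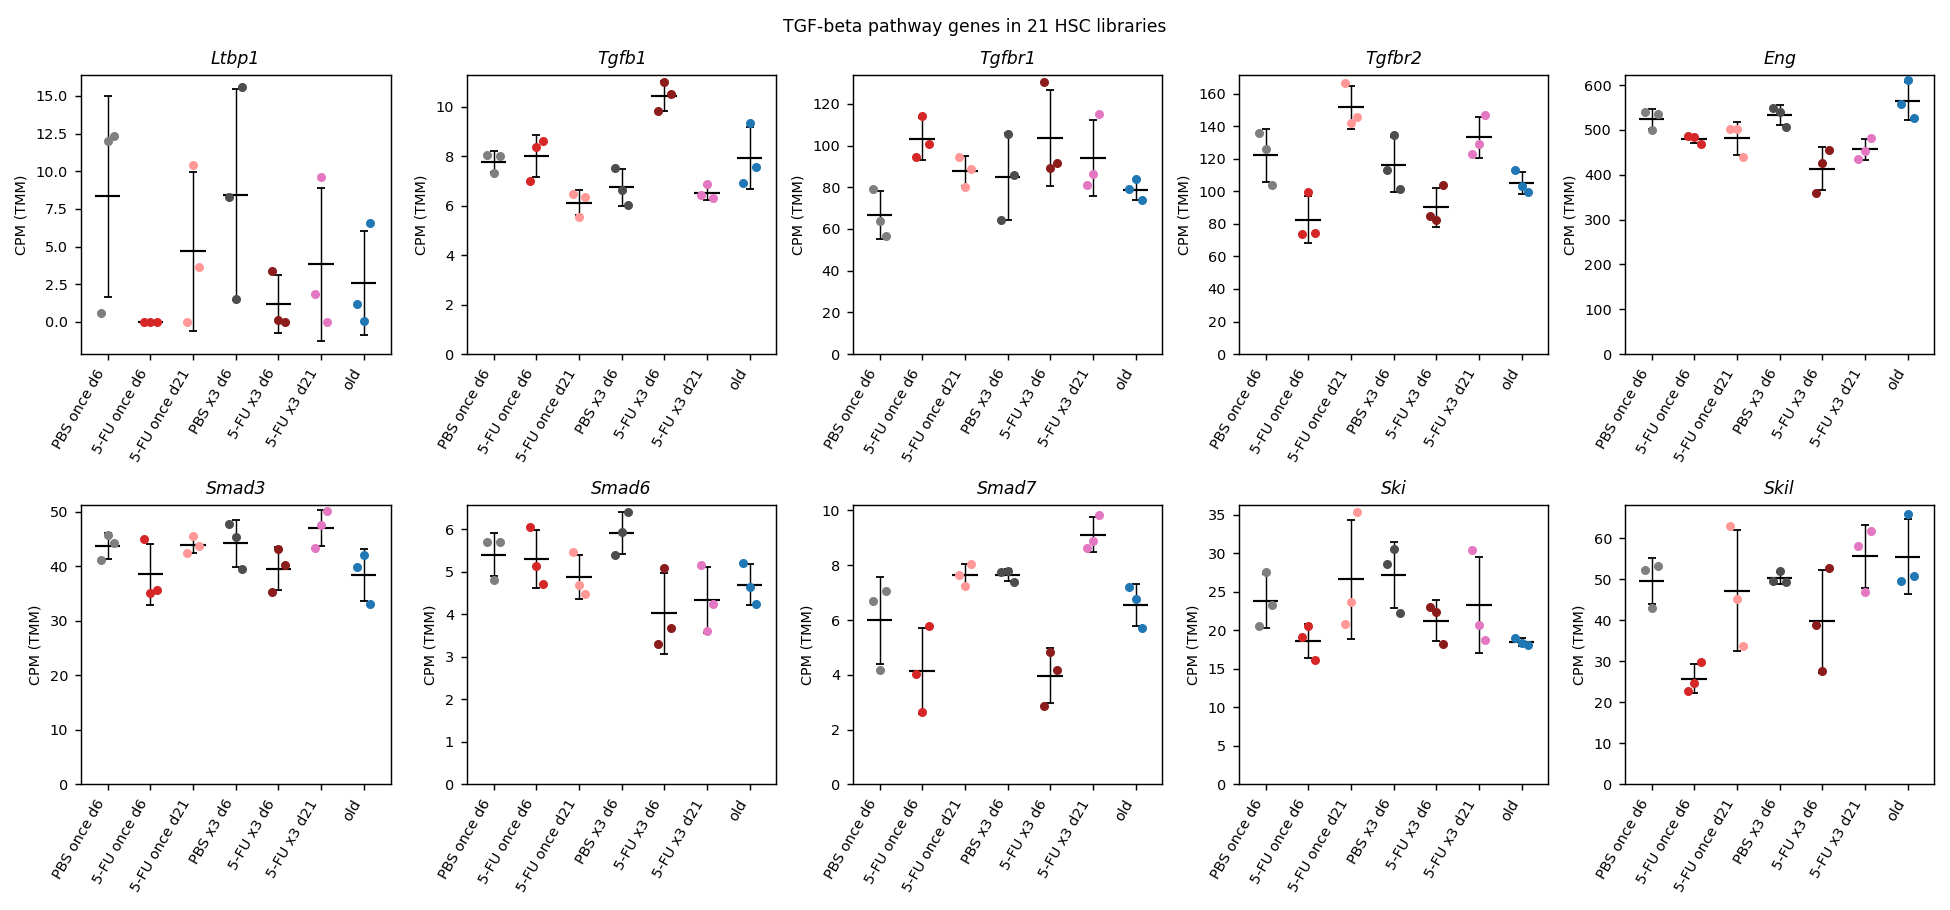
Normalized levels (CPM with TMM factors, vertical axis) of the 10 genes in each of the 7 groups (horizontal axis); points are libraries, horizontal bars means and vertical bars SD (n = 3), and d6 and d21 stand for day 6 and day 21. Ltbp1 is at 0 in the 3 libraries of 5-FU once at day 6 and spans 0.593 to 12.4 CPM among those of PBS once, while Eng lies between 360.0 and 611 CPM in all 21 libraries.

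Across all 21 libraries Ltbp1 had a coefficient of variation of 123%, against 10.8% for Smad3, 11.2% for Eng and 31.0% for Smad7, the next most variable of the 10 genes. It was at 0 in 6 libraries and at or under the floor in 7. It had 0.593, 12.01 and 12.4 CPM after PBS once and 8.26, 1.52 and 15.6 CPM after PBS 3 times. The PBS once group alone thus held libraries with 16 and with 322 counts of this gene. At day 21 it had 0, 10.4 and 3.65 CPM after 5-FU once and 1.83, 9.61 and 0 CPM after 5-FU 3 times. Old HSCs had 1.21, 0.058 and 6.54 CPM. Outside the 5-FU groups of day 6, every group had a library above 6 CPM and one under 2 CPM, and the mean of a group describes its libraries poorly. Ltbp1 lies on chromosome 17 (75005568–75392512, GRCm38), and none of its annotated exons is shared with another gene.

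Over the 21 libraries, the genes with the pattern most like that of Ltbp1 among 12044 genes with a mean of at least 1 CPM were Twnk, the mitochondrial DNA helicase (Pearson r = 0.73), Mknk1, a kinase of the translation initiation factor eIF4E (0.72), Eola1 (0.71), BC016579 (0.71) and Asb7 (0.71). These r values are of log2(CPM + 1), and the libraries share treatment groups and depth. They are given as a description.

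At day 6 after 5-FU once, Ltbp1 had 0 counts in each of the 3 libraries, against 16, 322 and 289 counts after PBS once. Set against the floor of 3 counts per library, its mean was at least 71.0-fold lower. This bound rests on PBS replicates 2 and 3, since replicate 1 had only 16 counts. The members were selected on this comparison, and the following values describe it without a test. The ligand Tgfb1 had 7.02, 8.37 and 8.61 CPM after 5-FU and 8.04, 7.31 and 8.0 CPM after PBS, and the groups overlapped.

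The receptors lay on opposite sides of their controls. Tgfbr1, the type I receptor, had 79.3, 63.6 and 56.8 CPM after PBS and 94.4, 114 and 101 CPM after 5-FU, and its log2 fold change was 0.62 ± 0.14 (standard error). Tgfbr2, the type II receptor, had 136, 126 and 104 CPM after PBS and 74.0, 99.4 and 74.2 CPM after 5-FU, with a log2 fold change of −0.57 ± 0.15. Neither receptor overlapped between the groups. Here and below, the share of all genes without overlap is not given, so a lack of overlap has no background to be read against. Eng, which binds TGF-β family ligands beside these receptors, had 541, 499 and 535 CPM after PBS and 487, 484 and 469 CPM after 5-FU. This small difference, a log2 fold change of −0.14 ± 0.057, also left the groups without overlap. Eng shares 1.51% of its annotated exonic bases with Fpgs on the opposite strand, and how the counting treated strand is not stated.

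Among the intracellular genes, Skil stood farthest from its control. Skil (SnoN), a SMAD co-repressor and itself a known target of TGF-β, had 52.2, 43.1 and 53.3 CPM after PBS and 22.9, 24.8 and 29.7 CPM after 5-FU. Its log2 fold change was −0.95 ± 0.13, with no overlap. Its relative Ski had 20.6, 27.5 and 23.2 CPM after PBS and 19.1, 20.5 and 16.2 CPM after 5-FU, with a log2 fold change of −0.36 ± 0.14 and a gap of less than 0.1 CPM between the groups. Smad7, the inhibitory SMAD that TGF-β induces, had 6.71, 4.18 and 7.06 CPM after PBS and 4.03, 2.63 and 5.78 CPM after 5-FU, and these overlapped (log2 fold change −0.54 ± 0.34). Smad3 (−0.19 ± 0.11) and Smad6 (−0.04 ± 0.20), which acts mainly on the bone morphogenetic protein (BMP) branch, overlapped as well. The median log2 fold change of the 10 genes was −0.28. It includes Ltbp1, which was chosen by its fall in this comparison, so it is no measure of the pathway as a whole.

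Of 52 other genes of the pathway, taken from a list of ligands, activators, receptors, SMADs, inhibitors, the BMP and activin branch and target genes, 44 passed the filter on low counts and were tested in this comparison. Of these, 4 rose and 6 fell (quasi-likelihood F test of edgeR, adjusted p under 0.05 over 12759 genes). That is close to the share of all genes, of which 22.2% passed, with 11.5% higher and 10.6% lower. Id1, an inhibitor of differentiation that BMP signalling induces, had 4.49, 5.04 and 4.49 CPM after PBS and 36.3, 41.8 and 31.3 CPM after 5-FU. It rose by 2.95 ± 0.14 on the log2 scale (adjusted p = 0.000321). Cdkn1a, the cell cycle inhibitor p21, rose from 5.15 ± 1.28 to 14.1 ± 0.208 CPM (SD, n = 3; adjusted p = 0.00385). Both are target genes of the pathway and of other signals, Cdkn1a above all of p53.

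Ltbp3, a paralog of Ltbp1 that also holds latent TGF-β, fell. It had 45.04, 42.6 and 50.5 CPM after PBS and 21.1, 16.8 and 25.8 CPM after 5-FU (log2 fold change −1.12 ± 0.16, adjusted p = 0.00435). The activin receptor Acvr2b fell from 24.3 ± 5.23 to 11.3 ± 0.803 CPM (SD, n = 3; adjusted p = 0.00538). The calls of Id1, Cdkn1a, Ltbp3 and Acvr2b remained when any one library was left out. The other named calls were lost in at least 4 of these 6 fits. These were the BMP receptor Acvr1 (log2 fold change 1.27, adjusted p = 0.0317, up to 0.0917 with a library left out) and the co-receptor Tgfbr3 (0.27, adjusted p = 0.0367, up to 0.109), which were higher. Junb, an AP-1 gene (−0.61, adjusted p = 0.0303, up to 0.0927), the co-repressor Tgif1 (−0.55, adjusted p = 0.0483, up to 0.138, with overlapping groups) and the BMP mediator Smad1 (−0.29, adjusted p = 0.0499, up to 0.139) were lower. Thbs1, an activator of latent TGF-β with under 100 counts on average that was named after its values were seen, was lower as well (0.098 against 4.78 CPM, adjusted p = 0.0124). The summed level of 8 stromal markers was 54.3–124 CPM after PBS and 6.58–12.4 CPM after 5-FU, most of it Cxcl12 and Pdgfrb. Col3a1 and Dcn were at 0 in all 6 libraries. The summed level of 7 megakaryocyte markers was 165–202 CPM after PBS and 107–112 after 5-FU, and that of the 5 erythroid markers found was 21.5–24.5 and 56.6–63.0 CPM. Their part in the results was not tested.

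**Figure D2:**
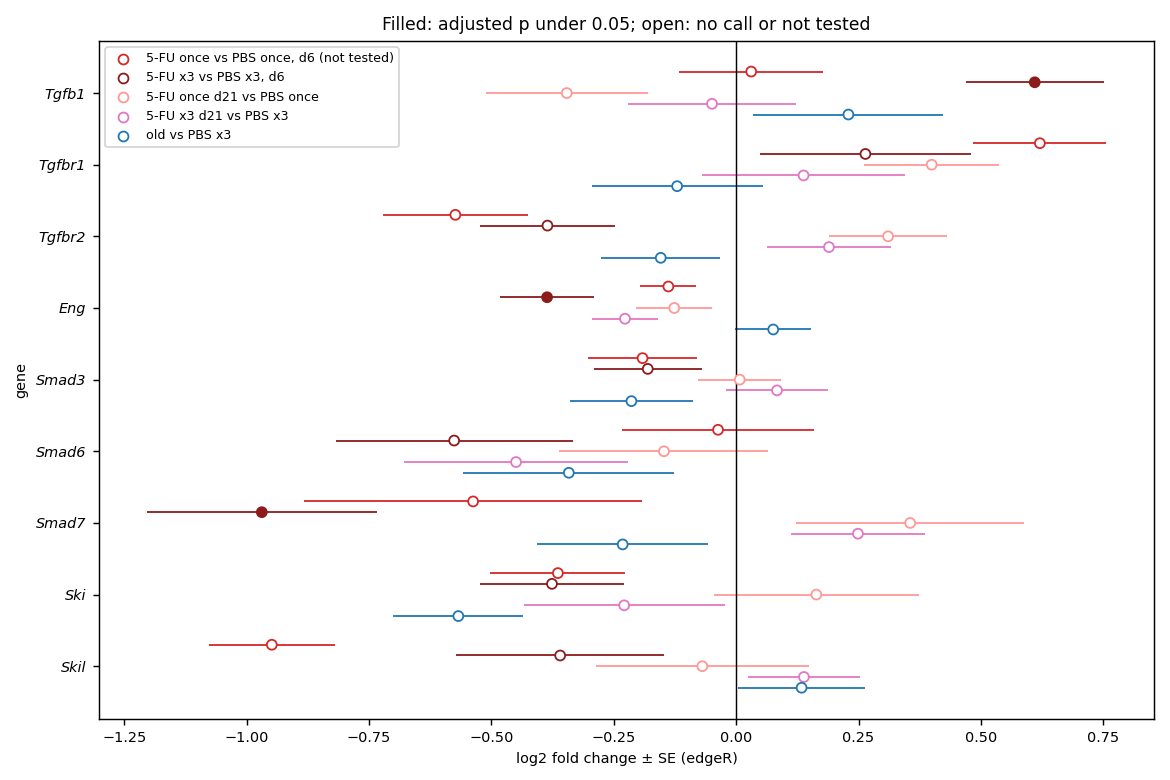
Log2 fold changes (horizontal axis; bars are standard errors) of 9 of the 10 genes (vertical axis) in 5 comparisons with PBS, with Ltbp1 left out because its fitted value after 5-FU once depends on the prior count. Filled points passed an adjusted p of 0.05, and those of 5-FU once at day 6 were not tested. Tgfb1 (0.61), Eng (−0.39) and Smad7 (−0.97) are filled for 5-FU 3 times at day 6.

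Mice given 5-FU 3 times and isolated at day 6 repeat the treatment in libraries other than those that chose Ltbp1. Here 3 of the 10 genes passed, 1 higher and 2 lower (quasi-likelihood F test of edgeR, adjusted over 12729 genes), where 18.1% of all genes passed, with 9.84% higher and 8.3% lower. The ligand Tgfb1 had 9.81, 11.0 and 10.5 CPM after 5-FU and 7.52, 6.64 and 6.04 CPM after PBS. It rose by 0.61 ± 0.14 on the log2 scale (adjusted p = 0.0267), and its groups did not overlap. Smad7 had 2.86, 4.83 and 4.19 CPM after 5-FU and 7.75, 7.79 and 7.39 CPM after PBS, and it fell by 0.97 ± 0.23 on the log2 scale (adjusted p = 0.0314). Eng had 360.0, 426 and 455 CPM after 5-FU and 549.6, 541 and 508 CPM after PBS, and it fell by 0.39 ± 0.096 (adjusted p = 0.0343). In each of the 3 genes the groups lay apart, but each call was lost when any one of 5 of the 6 libraries was left out. For Tgfb1 these were all but PBS replicate 1 (adjusted p 0.0562 to 0.0806), for Smad7 all but 5-FU replicate 2 (0.0556 to 0.0841) and for Eng all but 5-FU replicate 3 (0.0662 to 0.0957). When library size alone was used for scaling, the adjusted p of Tgfb1 also missed the threshold.

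Ltbp1 had 3.38, 0.132 and 0 CPM after 5-FU 3 times, against 8.26, 1.52 and 15.6 CPM after PBS 3 times. The groups overlapped and the difference did not pass (adjusted p = 0.232). A single library decided this, since without 5-FU replicate 1, which had 110 counts, the adjusted p was 0.0351, and over the fits with any one library left out it ranged from 0.0351 to 0.478. Tgfbr1 had 130.3, 89.3 and 91.8 CPM after 5-FU and 64.2, 106 and 85.8 CPM after PBS (log2 fold change 0.26 ± 0.22, adjusted p = 0.438). Tgfbr2 had 84.6, 82.3 and 104 CPM after 5-FU and 113, 134 and 101 CPM after PBS (−0.39 ± 0.14, adjusted p = 0.100). The receptor groups overlapped here, and with library size alone as the scaling Tgfbr2 passed (adjusted p = 0.0353). Smad6 had 3.29, 5.10 and 3.68 CPM after 5-FU and 5.40, 5.93 and 6.40 CPM after PBS, without overlap but also without a call (−0.58 ± 0.24, adjusted p = 0.148). Skil (−0.36 ± 0.21, adjusted p = 0.289), Ski (−0.38 ± 0.15, adjusted p = 0.125) and Smad3 (−0.18 ± 0.11, adjusted p = 0.302) overlapped. Skil in particular had 38.9, 27.6 and 52.8 CPM after 5-FU and 49.5, 52.1 and 49.4 CPM after PBS, so that 1 treated library lay above all controls. The median log2 fold change of the 10 genes was −0.38, against −0.012 for all genes tested. Whether the effects after 5-FU once and 3 times differ was not tested for these genes.

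Of the 45 other pathway genes that passed the filter, 2 rose and 8 fell. Of all genes 18.1% passed, with 9.84% higher and 8.3% lower. Ltbp3 had 42.5, 40.4 and 44.97 CPM after PBS and 23.7, 24.5 and 21.6 CPM after 5-FU (−0.89 ± 0.086, adjusted p = 0.00248). Furin, the protease that cleaves the TGF-β precursor, had 41.3, 49.3 and 43.7 CPM after PBS and 29.5, 26.1 and 24.0 CPM after 5-FU (−0.78 ± 0.11, adjusted p = 0.00610). Both genes act before the ligand reaches its receptor, and so does Itgb6, an activating integrin with under 100 counts on average (−1.33, adjusted p = 0.0461, named after its values were seen). Of the 10 latency and activation genes tested, Ltbp1 among them, these 3 were lower and 7 had no call. Whether this differs from the share of all genes that were lower was not tested. Id1 had 3.95, 1.83 and 5.44 CPM after PBS and 13.9, 15.1 and 14.8 CPM after 5-FU (1.95 ± 0.35, adjusted p = 0.0122). The co-receptor Tgfbr3 (betaglycan), which presents ligand to Tgfbr2, had 51.9, 48.7 and 59.3 CPM after PBS and 82.5, 74.4 and 82.9 CPM after 5-FU (0.56 ± 0.10, adjusted p = 0.0124). These 4 named calls, Ltbp3, Furin, Id1 and Tgfbr3, remained with any one library left out.

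Cdkn1c, the cell cycle inhibitor p57 that is typical of quiescent HSCs, had 93.7, 92.6 and 82.6 CPM after PBS and 38.4, 60.2 and 61.3 CPM after 5-FU (−0.77 ± 0.18, adjusted p = 0.0277, up to 0.0757 with a library left out). Junb (−0.60 ± 0.14, adjusted p = 0.0273, up to 0.0854), Tgif1 (−0.52 ± 0.13, adjusted p = 0.0340, up to 0.104) and Zfyve9 (SARA, an adaptor that brings Smad2 and Smad3 to the receptor; −1.27 ± 0.32, adjusted p = 0.0352, up to 0.103) were lower as well. The calls of these 4 genes were each lost in 4 or 5 of the 6 fits with a library left out. Bmp4, with under 100 counts on average and named after its values were seen, was also lower (0.653 against 4.45 CPM, adjusted p = 0.0190). Id1, Tgfbr3, Ltbp3, Tgif1 and Junb passed in the same direction after 5-FU once and after 5-FU 3 times, which is 5 of the 10 other pathway genes called in each, or the same share of either list. Over all genes 1190 passed in the same direction in both, 42.1% of those called after 5-FU once and 51.5% of those called after 5-FU 3 times, so the share of the pathway genes was close to that of all genes. The summed stromal markers were 33.9–56.2 CPM after PBS 3 times and 27.5–49.0 after 5-FU 3 times, and the megakaryocyte markers 177–185 and 151–160 CPM. Their part in these results was not tested.

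**Figure D3:**
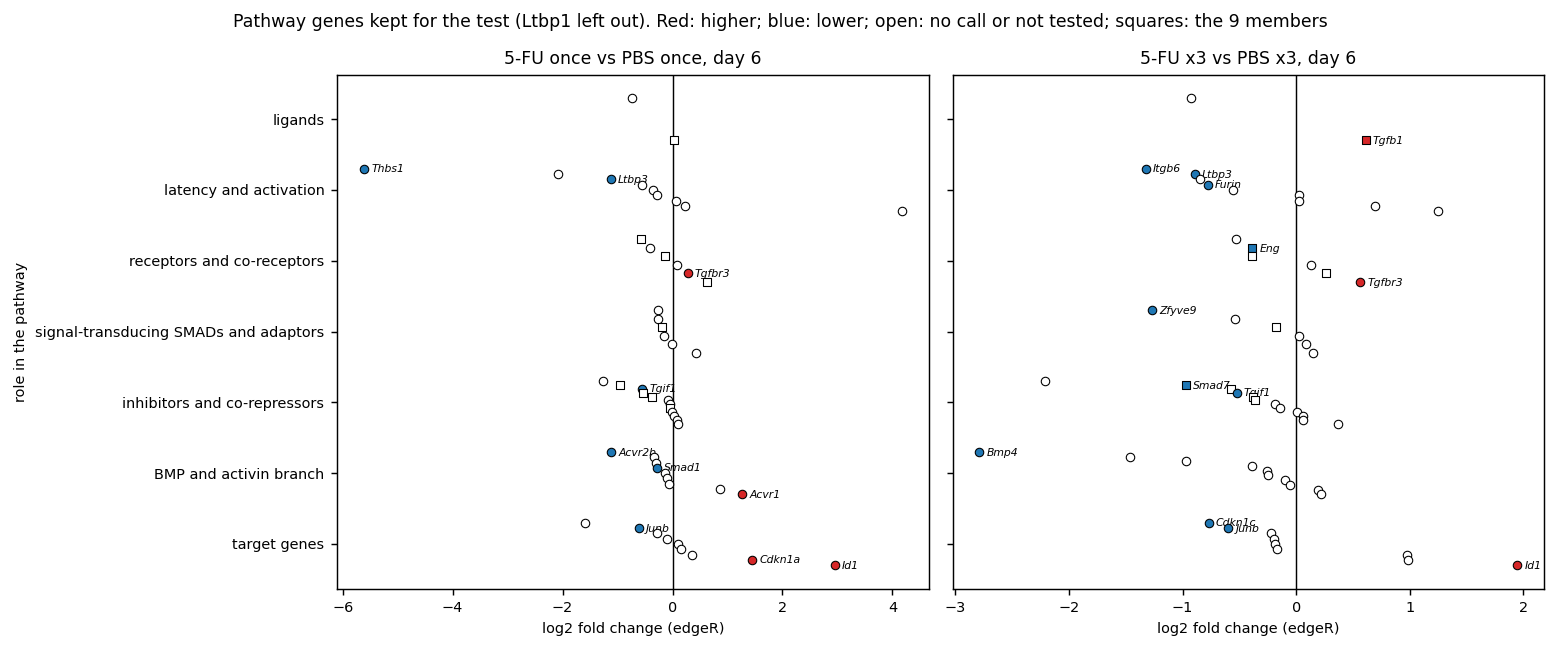
Log2 fold changes (horizontal axis) of the pathway genes that passed the filter on low counts, by role (vertical axis), for 5-FU once (left) and 3 times (right) at day 6; squares are 9 of the 10 genes, circles the other pathway genes, and Ltbp1 is left out. Red and blue mark genes called higher and lower, and open symbols no call or, for the squares on the left, no test. Id1 lies at 2.95 and 1.95, and Ltbp3 at −1.12 and −0.89.

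The level of Tgfbr1 over that of Tgfbr2 was computed for every library after the values had been seen, and is given without a test. This ratio of CPM was 0.54 ± 0.039 (SD, n = 3) after PBS once and 1.26 ± 0.10 after 5-FU once at day 6. After 5-FU 3 times at day 6 it was 1.17 ± 0.34, with libraries from 0.883 to 1.54, and after PBS 3 times 0.73 ± 0.15. At day 21 it was 0.58 ± 0.025 after 5-FU once and 0.70 ± 0.068 after 5-FU 3 times, and in old HSCs 0.75 ± 0.056. All 6 libraries of 5-FU at day 6, at 0.883 or more, thus lay above the other 15, at or under 0.847. The CPM were not divided by transcript length, which scales the ratio alike in every library, so that a ratio of 1 does not mark equal transcript levels.

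**Figure D4:**
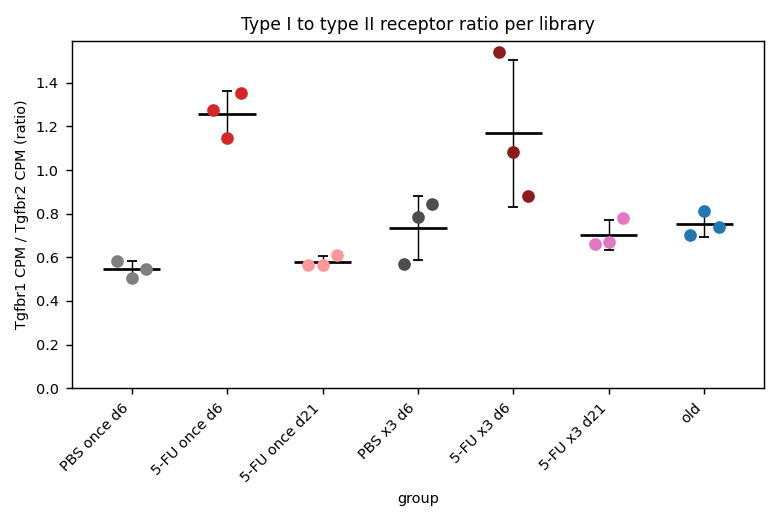
Tgfbr1 CPM divided by Tgfbr2 CPM (vertical axis, a ratio) in each library of the 7 groups (horizontal axis); points are libraries, horizontal bars means and vertical bars SD (n = 3). The libraries of 5-FU once at day 6 lie between 1.15 and 1.35, those of 5-FU 3 times at day 6 between 0.883 and 1.54, and the others at or under 0.847.

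Between day 6 and day 21 after 5-FU 3 times, 3 of the 10 genes passed, 2 higher and 1 lower at day 21 (edgeR, adjusted over 12553 genes), where 19.5% of all genes passed, with 8.68% higher and 10.8% lower. This comparison shares its day 6 libraries with the one above. Tgfb1 had 6.43, 6.87 and 6.30 CPM at day 21, and it fell by 0.67 ± 0.14 on the log2 scale (adjusted p = 0.0163). Tgfbr2 had 123, 129 and 147 CPM at day 21, and it rose by 0.56 ± 0.12 (adjusted p = 0.0187). Smad7 had 8.63, 8.88 and 9.84 CPM at day 21, and it rose by 1.21 ± 0.23 (adjusted p = 0.0133). All 3 lay apart from their day 6 libraries. The call of Smad7 remained with any one library left out. That of Tgfb1 was lost without day 6 replicate 2 or 3 (adjusted p up to 0.0557), and that of Tgfbr2 without day 6 replicate 1 or 2 or day 21 replicate 3 (up to 0.0658). The remaining 7 genes did not pass. Skil had 58.3, 46.9 and 61.7 CPM at day 21 (log2 fold change 0.49 ± 0.23, adjusted p = 0.179), and Smad3 had 43.3, 47.6 and 50.04 CPM (0.25 ± 0.11, adjusted p = 0.137).

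Of the 43 other pathway genes tested here, 9 rose and 4 fell. Of all genes 19.5% passed, with 8.68% higher and 10.8% lower, and whether the shares differ was not tested. Ltbp3 had 40.1, 38.0 and 45.7 CPM at day 21 and rose by 0.83 ± 0.10 on the log2 scale (adjusted p = 0.00279). Tgif1 (0.82, adjusted p = 0.00445) and Acvr2b (1.12, adjusted p = 0.00668) rose too. Id1 had 0.448, 3.03 and 0.945 CPM at day 21, and it fell by 3.29 ± 0.58 on the log2 scale (adjusted p = 0.00971). These 4 calls remained with any one library left out. Junb (0.69, adjusted p = 0.0160, up to 0.0593 with a library left out), Furin (0.67, adjusted p = 0.0329, up to 0.112), Cdkn1c (0.66, adjusted p = 0.0471, up to 0.117) and the BMP receptor Bmpr2 (0.53, adjusted p = 0.0399, up to 0.110) were higher. Cdkn1a (−1.53, adjusted p = 0.0228, up to 0.0767) and Thbs1 (−1.62, adjusted p = 0.0189, up to 0.0678) were lower. Each of these 6 calls was lost in 2 to 6 of the 6 fits with a library left out. Rnf111, Smad1 and Id3 complete the 13 calls.

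**Figure D5:**
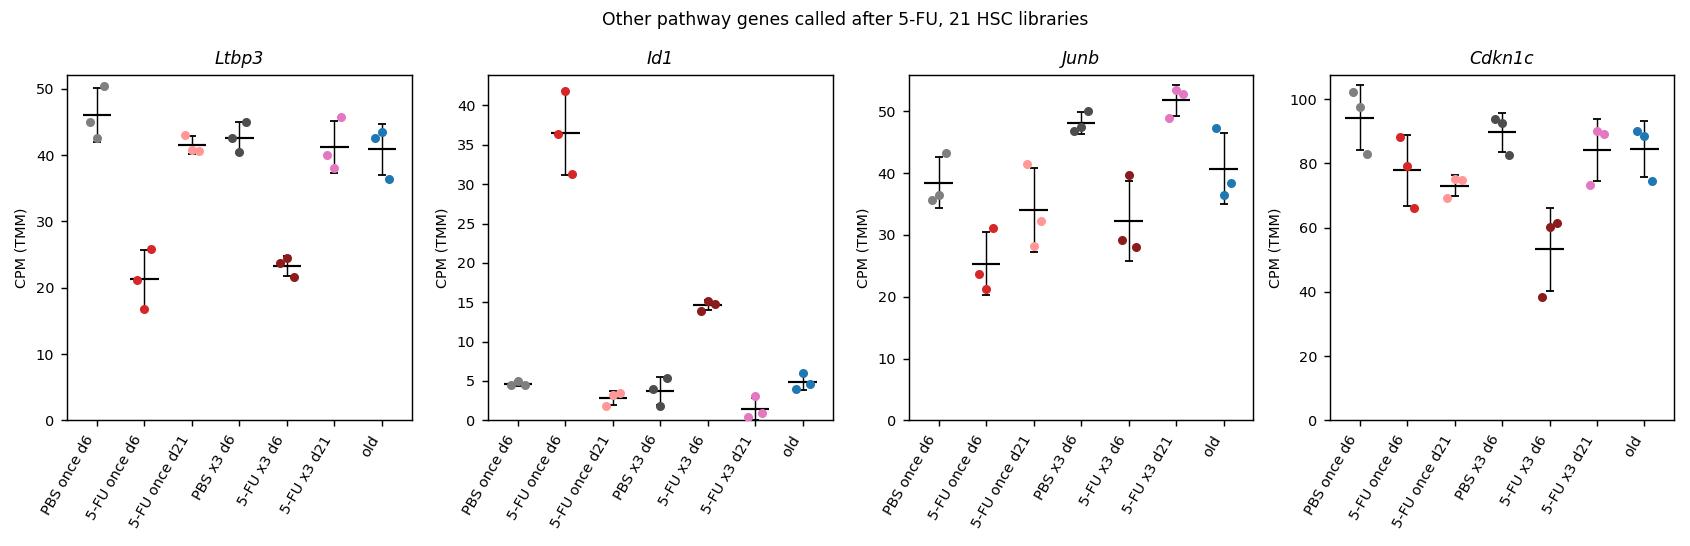
Normalized levels (CPM with TMM factors, vertical axes) of Ltbp3, Id1, Junb and Cdkn1c in the 7 groups (horizontal axes); points are libraries, horizontal bars means and vertical bars SD (n = 3). Ltbp3 lies between 16.8 and 25.8 CPM in the 6 libraries of 5-FU at day 6 and between 36.4 and 50.5 CPM in the other 15, and Id1 between 13.9 and 41.8 CPM in the former and at or under 5.98 CPM in the latter.

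At day 21 few genes of any kind differed from PBS. After 5-FU once, none of the 9 genes tested passed (edgeR, 0.221% of all genes passed), with 2 at an unadjusted p under 0.05 and none called by DESeq2. Over all genes DESeq2 called 726, and the share at an unadjusted p under 0.05 is not given here. Tgfbr1, at 94.5, 80.2 and 88.9 CPM, and Tgfbr2, at 167, 142 and 146 CPM, both lay above their PBS once libraries without overlap, with log2 fold changes of 0.40 ± 0.14 (adjusted p = 0.276) and 0.31 ± 0.12 (adjusted p = 0.328). Smad7, at 7.65, 7.24 and 8.05 CPM, lay above PBS once as well (0.36 ± 0.23, adjusted p = 0.553), and Tgfb1, at 6.48, 5.54 and 6.36 CPM, lay below it (−0.35 ± 0.17, adjusted p = 0.422). How many of all genes lay apart in this way is not given here. Skil spread from 33.7 to 63.0 CPM and Ski from 20.9 to 35.4 CPM. Of the 43 other pathway genes, Thbs1, named after its values were seen, passed. It had 0 counts in the 3 libraries of day 21, a level at least 49.2-fold lower than after PBS once (adjusted p = 0.0256). A control library of PBS 3 times was at 0 as well, and no range with a library left out is given for this call.

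After 5-FU 3 times, none of the 10 genes passed against PBS 3 times at day 21 (edgeR, 0.0475% of all genes passed), with 1 at an unadjusted p under 0.05, and DESeq2 called Eng. Eng had 436, 453 and 481 CPM at day 21, below the 3 PBS libraries (−0.23 ± 0.068, adjusted p = 0.240 by edgeR and 0.0392 by DESeq2). Smad7 lay above its PBS libraries without overlap (0.25 ± 0.14, adjusted p = 0.478) and Smad6, at 5.16, 3.62 and 4.25 CPM, below them (−0.45 ± 0.23, adjusted p = 0.452). None of the 43 other pathway genes passed, with 11 at an unadjusted p under 0.05 and 5 called by DESeq2. DESeq2 called 573 genes in all here. The share of all genes at an unadjusted p under 0.05 is not given, so these counts have no background to be read against.

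Old HSCs were compared with those of mice given PBS 3 times. None of the 10 genes passed (edgeR, 0.996% of all genes passed), with 1 at an unadjusted p under 0.05, and DESeq2 called Ski. Over all genes DESeq2 called 557, and the share at an unadjusted p under 0.05 is not given here. Ski had 19.0, 18.4 and 18.1 CPM in old HSCs and 28.6, 30.6 and 22.3 CPM after PBS 3 times (−0.57 ± 0.13, adjusted p = 0.128 by edgeR and 0.0307 by DESeq2). The old libraries lay close together and below every control library of that group. Eng had 557, 611 and 527 CPM (0.08 ± 0.077, adjusted p = 0.853), Tgfb1 6.92, 9.34 and 7.57 CPM (0.23 ± 0.19, adjusted p = 0.801) and Smad7 7.21, 6.76 and 5.70 CPM (−0.23 ± 0.18, adjusted p = 0.758). Among 44 other pathway genes Furin passed, with 29.1, 28.9 and 24.7 CPM in old HSCs (−0.71 ± 0.11, adjusted p = 0.0353), but its adjusted p was between 0.0732 and 0.122 with any one library left out. Thbs1, named after its values were seen, had 71.9, 38.8 and 98.6 CPM in old HSCs and 0, 8.29 and 3.13 CPM after PBS 3 times, and it did not pass (adjusted p = 0.113).

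The control groups were also compared with each other, PBS 3 times with PBS once. None of the 9 genes tested passed, and none had an unadjusted p under 0.05 or was called by DESeq2 (edgeR, 0.0156% of all genes passed). The largest log2 fold changes among the 9 were those of Tgfbr1, whose libraries overlapped (0.36 ± 0.20, adjusted p = 0.517), and of Smad7, whose PBS 3 times libraries all lay above those of PBS once (0.36 ± 0.22, adjusted p = 0.556). Of the 44 other pathway genes none passed, with 8 at an unadjusted p under 0.05 and 2 called by DESeq2. Over all genes DESeq2 called 531, and the share at an unadjusted p under 0.05 is not given here.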

How the data were processed

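RNA of HSCs (3000 to 3500 per library of PBS- or 5-FU-treated mice) was amplified with a SMART-Seq kit and sequenced as single-end reads of 75 bases. The authors aligned the reads to mm10 with TopHat2 2.0.13 and used Cuffdiff from Cufflinks 2.2.1, and they deposited whole-number counts for 21000 gene symbols without normalization. How these counts were made, including the treatment of strand and of reads with several alignments, is not given in the sources used here. No molecular identifiers are mentioned, so the floor covers counting error only. The study describes biological replicates and pooled samples, but the labels do not tie libraries to mice, and p-values measure the spread between these libraries.

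Pairs of groups were compared by edgeR 4.0.16, with its quasi-likelihood F test (R 4.3.3, filterByExpr, TMM factors), with Benjamini-Hochberg adjustment over all genes kept and a threshold of 0.05. DESeq2 1.42.0 was an alternative. CPM used TMM factors over all 21 libraries. Levels between genes were divided by the longest transcript of GENCODE vM21 on GRCm38. The edgeR and DESeq2 steps were tested on simulated counts. The 10 genes, the list of 52 other pathway genes (Ctgf is listed as Ccn2) and the marker lists were chosen with earlier results of these data known. Ltbp1 was given no test wherever the libraries that chose it entered, and none of the 10 genes was tested in the comparison of 5-FU once with PBS once. Other pathway genes were named if they passed with a mean of at least 100 counts, up to 10 per comparison by size of change. Among endothelial, erythroid, lymphoid and myeloid markers, the summed levels at day 6 after PBS once and 5-FU once were 52.7–53.9 and 55.0–61.7, 21.5–24.5 and 56.6–63.0, 0.342–1.33 and 0.037–0.421, and 97.4–121 and 59.6–73.5 CPM. After PBS 3 times and 5-FU 3 times they were 50.3–56.1 and 48.5–55.8, 19.5–25.0 and 29.7–40.3, 0.0965–2.14 and 0–1.56, and 90.1–119 and 53.1–75.8 CPM.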

Additional observations from a re-analysis of the deposited data

How the results depend on the processing

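For 86 tested values of named genes and 1125 alternative fits of them, none of the called values changed sign, 1010 fits kept the side of the threshold, 111 lost the call and 4 gained one. For the 12 values given without a test, none of 154 alternative fits moved the log2 fold change by more than its standard error times the square root of 3. That band is wide for Ltbp1, whose standard error was 2.07 after 5-FU once at day 6. Over the alternatives, Ltbp1 between the PBS groups ranged from −0.77 to 0.52. Tgfb1 (−0.024 to 0.12) and Smad6 (−0.14 to 0.042) after 5-FU once at day 6 also took both signs. The calls gained were Tgfbr2 after 5-FU 3 times at day 6 (library size alone), Ltbp1 there (without 5-FU replicate 1), Eng at day 21 after 5-FU 3 times (DESeq2) and Ski in old HSCs (DESeq2). Ltbp1 was at or under 3 counts in 7 of 21 libraries, among them the one with the highest total count. The causes of the changes below were not tested.

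With the replicate number as a block, 0 in place of 3 of the 10 genes passed after 5-FU 3 times at day 6, 0 in place of 1 other pathway gene at day 21 after 5-FU once, and 0 in place of 1 in old HSCs. Correlations of deviations between libraries of the same number were near 0 (between −0.040 and 0.064). Between day 21 and day 6 after 5-FU 3 times all 3 were positive (0.031, 0.012 and 0.064). Whether the numbers pair the libraries is thus not settled. The block changed no other count of the 10 genes or of the other pathway genes by over 1.5 times. Over all genes it gave 1509 in place of 2310 calls after 5-FU 3 times at day 6, 3 in place of 28 at day 21 after 5-FU once, 0 in place of 6 at day 21 after 5-FU 3 times, 30 in place of 128 in old HSCs and 0 in place of 2 between the PBS groups. DESeq2 called 8 other pathway genes at day 21 after 5-FU once, 1 of the 10 genes and 6 others (5 of them kept by the edgeR filter) at day 21 after 5-FU 3 times, 1 and 6 in old HSCs, and 2 others between the PBS groups. A single fit of all 21 libraries called 4, 1 and 2 other pathway genes at day 21 after 5-FU once, at day 21 after 5-FU 3 times and in old HSCs. At day 21 after 5-FU once, library size alone gave 2, and a filter of 10 counts in each library gave 0.

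With each library left out in turn, the other pathway genes called ranged from 5 to 9 after 5-FU once and from 5 to 11 after 5-FU 3 times at day 6, from 0 to 2 at day 21 after 5-FU once, from 6 to 13 between day 21 and day 6 and from 0 to 1 in old HSCs. Of the 10 genes, 0 to 3 were called after 5-FU 3 times at day 6 and 1 to 3 between day 21 and day 6.

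Counts over all genes ranged across the alternatives from 1563 to 3548 (main 2827) and from 1231 to 3291 (main 2310) for 5-FU once and 3 times at day 6, from 1351 to 3348 (main 2450) for day 21 against day 6, from 1 to 726 (main 28) and from 0 to 573 (main 6) for day 21 after 5-FU once and 3 times, from 20 to 557 (main 128) for old HSCs and from 0 to 531 (main 2) between the PBS groups, each highest with DESeq2. Library size alone, against TMM, moved the share of higher calls from 52.0% to 41.0%, from 54.2% to 35.6% and from 44.4% to 63.5% for 5-FU once, 5-FU 3 times and day 21 against day 6, from 32.1% to 20.5% and from 83.3% to 40.0% at day 21 after 5-FU once and 3 times, and it shifted the median log2 fold change of all genes by −0.046, −0.099 and 0.11 in the first 3. With library size alone the mean of Tgfb1 after 5-FU 3 times at day 6 was 9.79 in place of 10.4 CPM.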
